A study of Mus musculus with 6 samples.

Results

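The 9 genes described here encode the core of the inflammasome outside the PYHIN family of DNA sensors: the sensors Nlrp3, Nlrp1b and Nlrc4, the adaptor Pycard, the caspases Casp1 and Casp4, the pore former Gsdmd, and the cytokines Il18 and Il1b. They were picked by gene symbol from 19390 genes in the deposited count table, and all 9 had a row. The choice was made with the difference between the genotypes in these same libraries known, so that difference is given for them as a description, and the p-values of the fit across all genes do not stand as independent evidence.

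Inflammasomes are protein complexes that form in the cytosol when a sensor detects infection or damage. The sensor recruits the adaptor ASC, encoded by Pycard, or binds caspase-1 directly, and active caspase-1 cuts the precursors of IL-1β and IL-18 and the pore protein gasdermin D, whose pores release the cytokines and can kill the cell. In mice Casp4 encodes caspase-11, which binds bacterial lipopolysaccharide and cuts gasdermin D without a sensor of this kind. The complex is best known from macrophages, where Nlrp3 and Il1b are switched on by priming signals, and many of its genes respond to interferons. In γδ T cells, IL-18 and IL-1β are better known as signals received from myeloid cells than as products.

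Messenger RNA was measured in γδ T cells, lymphocytes whose antigen receptor is made of γ and δ chains, sorted from the spleens of mice aged 6 weeks. The 3 libraries labelled KO were taken to be Usf3 f/f mice that also carry CD2-cre, a transgene that drives Cre recombinase in lymphoid cells, and the 3 labelled WT to be Usf3 f/f mice without it, so both groups carry the floxed alleles and the comparison holds the transgene and the deletion together. USF3 is related to the upstream stimulatory factors, which bind the E-box DNA sequence. The labels do not say whether libraries of a group came from separate animals, so p-values measure the spread between these libraries.

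Each library held between 34644862 and 35806402 counts. Usf3 itself had 2532, 2360 and 2348 counts in the KO-labelled libraries, against 2499, 2527 and 2593 in the WT-labelled ones, a log2 fold change of -0.076 ± 0.043 (SE; edgeR quasi-likelihood, Benjamini-Hochberg adjusted p = 0.261). Because the floxed exons are not given, a count over the whole gene does not check the labels. The T cell markers Cd3e, Cd3d and Cd3g were present at 328, 263 and 340 CPM (counts scaled for library size) in KO-labelled and 346, 286 and 382 CPM in WT-labelled libraries, with log2 fold changes of -0.076, -0.12 and -0.17 (edgeR adjusted p = 0.0364, 0.00287 and 5.91e-05). Of the other listed T cell markers, Cd2 was also lower, at -0.095 (edgeR adjusted p = 0.0462). Cd247, Lat and Lck stood at 0.034, -0.0063 and -0.054 and did not pass (edgeR adjusted p = 0.593, 0.913 and 0.112). No gene of the γδ receptor chains was analysed here. Of other genes used as γδ T cell markers, Maf fell by 0.62 on the log2 scale (edgeR adjusted p = 0.00017), while Zbtb16 stood at 1.07 and did not pass (edgeR adjusted p = 0.0997). Of the markers of other lymphocytes, Cd8a was higher, with a log2 fold change of 0.40, and Foxp3 and Ncr1 were lower, at -0.57 and -0.93 (edgeR adjusted p = 7.51e-08, 0.000181 and 0.0398). The other tested markers Cd8b1, Cd4, Klrb1c and Cd79b stood at -0.021, -0.17, 0.049 and -0.11 and did not pass (edgeR adjusted p = 0.884, 0.851, 0.506 and 0.693). Klrb1c, like Ncr1 an NK cell marker, averaged 75.0 CPM over the 6 libraries, against 1.41 CPM for Ncr1. The part of cell composition in the results below was not tested. In bulk samples fewer cells of a type and less RNA per cell cannot be told apart.

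The genes fell into an abundant and a scarce set. On the deposited FPKM scale, which divides counts by gene length so that genes can be compared, Casp1 stood highest with 28.0 ± 0.861 in KO-labelled and 32.0 ± 1.19 in WT-labelled libraries (SD, n = 3 each). Pycard followed with 25.9 ± 1.27 FPKM in KO-labelled and 28.5 ± 0.965 FPKM in WT-labelled libraries, and Gsdmd with 18.6 ± 0.559 FPKM in KO-labelled and 19.2 ± 0.972 FPKM in WT-labelled ones. Casp4 was the lowest of these, with 8.45 ± 0.0724 FPKM in KO-labelled and 9.16 ± 0.596 FPKM in WT-labelled libraries. So the adaptor, both caspases and the pore former were all present at the RNA level in these cells. No library of one of these 4 genes reached the level of the gene above it in either group.

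The sensors and the cytokines were far lower. Nlrp3 averaged 0.291 ± 0.0684 FPKM in KO-labelled and 0.833 ± 0.200 FPKM in WT-labelled libraries. Il18, Nlrp1b, Nlrc4 and Il1b all averaged under the level of Nlrp3, between 0.0182 FPKM for Nlrc4 and 0.0920 FPKM for Il18 in KO-labelled libraries, and between 0.0151 FPKM for Il1b and 0.171 FPKM for Il18 in WT-labelled libraries. In KO-labelled libraries the ranges of neighbouring genes in the order Il18, Nlrp1b, Il1b and Nlrc4 overlapped, so that order is not resolved. In WT-labelled libraries only Nlrc4 and Il1b overlapped, at the bottom of the order. By mean CPM over the 6 libraries, Pycard ranked 4004 and Nlrp3 10262 of 19390 genes, while Il1b ranked 14759.

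**Figure D1:**
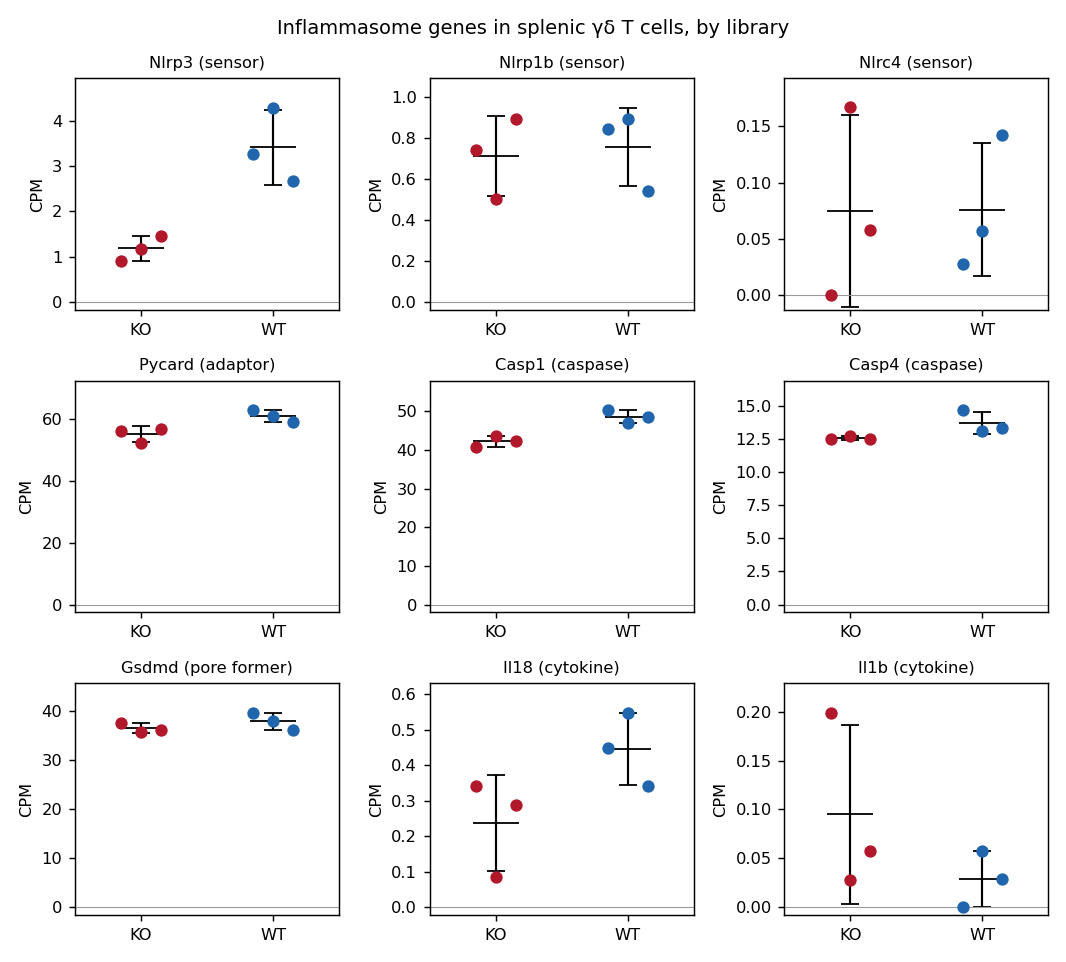
CPM of the 9 inflammasome genes in each library (points), with the mean and SD of each group (bars, n = 3), KO-labelled on the left and WT-labelled on the right of each panel, each with its own linear axis. Nlrp3 lies between 0.910 and 1.47 CPM in KO-labelled and between 2.67 and 4.28 CPM in WT-labelled libraries; Casp1, Pycard and Casp4 also lie wholly lower in KO-labelled libraries, by much smaller margins.

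Of the 9 genes, 7 had enough counts to be tested, and 3 of them, Nlrp3, Casp1 and Pycard, were lower in KO-labelled libraries at an adjusted p under 0.05, with 0 higher. The counts were also 3 and 0 at an unadjusted p under 0.05 and by DESeq2. Over all 12810 tested genes edgeR called 17.3% at the adjusted threshold, with 10.1% lower and 7.23% higher in KO-labelled libraries. By DESeq2, 817 genes in all were higher and 1171 lower. The share of all genes at an unadjusted p under 0.05 was not taken, so the unadjusted counts here and below have no background. In 4 of the 7, the same 3 and Casp4, every KO-labelled library lay below every WT-labelled one, which held for 16.7% of all tested genes. Since the genes were chosen on this contrast, nothing is read from these shares. The median log2 fold change was -0.15 over the 7 genes and 0.0014 over all tested genes.

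Nlrp3, the sensor that responds to potassium efflux, crystals and many other signs of cell damage, showed the largest difference. Its counts were 32, 42 and 51 in KO replicates 1, 2 and 3, against 116, 149 and 94 in WT replicates 1, 2 and 3. Every KO-labelled library was lower than every WT-labelled one, and within the WT-labelled group replicate 2 was the highest. As CPM the means were 1.18 ± 0.278 in KO-labelled and 3.41 ± 0.815 in WT-labelled libraries (SD, n = 3 each). On the log2 scale Nlrp3 changed by -1.52 ± 0.253 (SE; edgeR adjusted p = 0.000109), so that KO-labelled libraries held 0.35 of the WT level, with a 95% interval from 0.24 to 0.50.

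Because macrophages, dendritic cells and neutrophils express Nlrp3 strongly, their markers were set beside it. Of 27 listed myeloid markers 20 had a row and 4 had enough counts to be tested. Their summed level ran from 8.91 to 9.67 CPM in KO-labelled and from 9.69 to 12.0 CPM in WT-labelled libraries (log2 ratio -0.22; two-sided exact permutation p = 0.1, the smallest that 3 libraries against 3 allow). The groups nearly touched, and with RLE, upper-quartile or total scaling, or the 1 CPM filter, the exact permutation p for this sum was 0.2. Most of that sum was Cd68, a lysosomal protein gene, at 6.20 CPM in KO-labelled and 8.36 CPM in WT-labelled libraries, and it was the only one of the 4 that passed the test (log2 fold change -0.43, edgeR adjusted p = 0.0179). Vcan, the other tested gene of the macrophage list, stood on the other side of 0, at 0.27, and did not pass (edgeR adjusted p = 0.658). The lists differed in direction. The macrophage list summed to between 7.29 and 7.54 CPM in KO-labelled and between 8.06 and 10.9 CPM in WT-labelled libraries, whereas the dendritic cell list was higher, at 1.91, 1.48 and 1.67 CPM in KO-labelled and 1.46, 0.891 and 1.05 CPM in WT-labelled libraries (log2 ratios -0.35 and 0.59; exact permutation p = 0.1 for each). Xcr1, a dendritic cell receptor gene, stood at 1.43 and did not pass (edgeR adjusted p = 0.0834), nor did Zbtb46 at 0.40 (edgeR adjusted p = 0.555). Clec10a, of the same list, went the other way, with 0, 1 and 1 counts in KO-labelled and 3, 7 and 13 in WT-labelled libraries. Flt3 had 0, 8 and 0 counts in KO-labelled and 0, 1 and 0 in WT-labelled libraries. The neutrophil list summed to under 1 CPM in every library and overlapped between the groups. The defining macrophage genes were near 0. Csf1r, the receptor for macrophage colony-stimulating factor, had 0, 0 and 0 counts in KO-labelled and 1, 0 and 4 in WT-labelled libraries, and Adgre1 (F4/80) had 1, 0 and 0 in KO-labelled and 0 in every WT-labelled library. Lyz2, the lysozyme of myeloid cells, had 1, 1 and 3 counts in KO-labelled libraries and 0, 14 and 0 in WT-labelled ones, and Cd14, a lipopolysaccharide co-receptor gene, had 0, 1 and 0 in KO-labelled and 1, 5 and 1 in WT-labelled ones. WT replicate 2, which held the highest Lyz2 and Cd14, also held the highest Nlrp3. Csf1r and Clec10a were instead highest in WT replicate 3, which held the lowest Nlrp3 of the WT-labelled libraries. The markers thus did not follow Nlrp3 in a common order, and a link between them was not tested. Without WT replicate 2 the Nlrp3 log2 fold change was -1.32 (edgeR adjusted p = 0.00388).

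**Figure D2:**
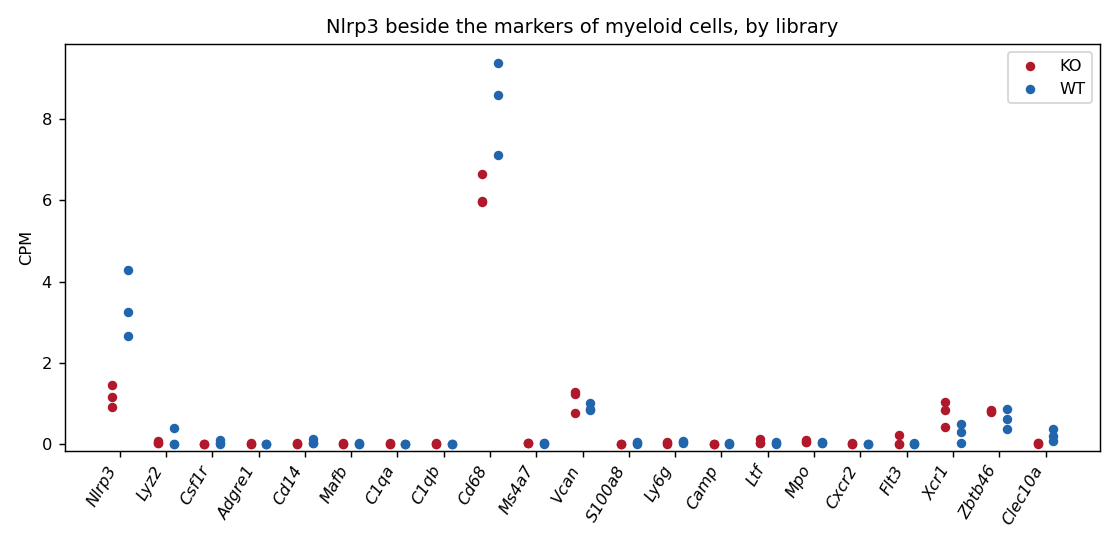
CPM of Nlrp3 and of the 20 myeloid markers that had a row, in each library (points; KO-labelled left of WT-labelled for each gene; linear axis). Nlrp3 and Cd68 are lower in KO-labelled libraries, while macrophage-defining genes such as Csf1r, Adgre1 and C1qa sit at or near 0 CPM in both groups.

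The other sensors stayed low. Nlrp1b, which is cut by anthrax lethal factor and held in check by the peptidases DPP8 and DPP9, had 26, 18 and 31 counts in KO-labelled and 30, 31 and 19 counts in WT-labelled libraries, and the groups overlapped. Its log2 fold change was -0.093 with a 95% interval from -0.89 to 0.70 (edgeR adjusted p = 0.911), which runs from 0.54 to 1.63 of the WT level. Nlrp1b has the close relative Nlrp1a, and how the counting treated reads shared between the pair is not stated, so both counts are uncertain. Nlrc4, which binds NAIP proteins loaded with bacterial flagellin or secretion-system needles, had 0, 6 and 2 counts in KO-labelled libraries and 1, 2 and 5 in WT-labelled ones. That is 8 counts in each group, a ratio of 0.998 with a 95% counting interval from 0.327 to 3.05, under the minimum for the test.

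Casp1, the protease at the centre of the complex, had 1434, 1562 and 1469 counts in KO-labelled and 1791, 1631 and 1708 counts in WT-labelled libraries. The groups did not overlap, and every KO-labelled library was lower. Means were 42.2 ± 1.41 CPM in KO-labelled and 48.6 ± 1.72 CPM in WT-labelled libraries (SD, n = 3 each), a log2 fold change of -0.20 ± 0.049 (SE; edgeR adjusted p = 0.00466). KO-labelled libraries thus held 0.87 of the WT level, with a 95% interval from 0.81 to 0.93. The difference passed the threshold without each library in turn, with adjusted p from 0.00369 to 0.0425.

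Casp4 is its neighbour on chromosome 9 and had 439, 455 and 433 counts in KO-labelled libraries, against 522, 455 and 468 in WT-labelled ones. After scaling by library size the KO-labelled libraries held 12.5, 12.7 and 12.5 CPM and the WT-labelled ones 14.7, 13.1 and 13.3 CPM, without overlap but with WT replicate 1 apart from the others. The log2 fold change was -0.13 ± 0.084 (SE), with a 95% interval from -0.30 to 0.049 that spans 0 (edgeR adjusted p = 0.356).

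Start-site windows of these genes are shown because the targeted gene belongs to a family that reads a short DNA word, the E-box CACGTG, and because priming of Nlrp3 and Casp4 in macrophages runs through NF-κB. RefSeq promoters (250 bases before to 50 after the annotated start, build GRCm38.p6, a different build from the GRCm39 that the submitters' processing notes name) matched 8 of the 9 genes, in 11 windows. Both strands were searched for CACGTG, for the interferon-response core GAAANNGAAA, for the STAT site TTCNNNGAA and for the NF-κB form GGGNNTTTCC, which was narrowed after the windows had been seen because GGGNNNNNCC occurs in 50.8% of all 32851 windows. CACGTG occurs in 7.15% of all windows, GAAANNGAAA in 3.44%, TTCNNNGAA in 8.30% and GGGNNTTTCC in 1.63%. Capitals mark matches, and each sequence runs 5′ to 3′ along the gene's own strand.
Nlrp3 at chr11:59541319-59541618, plus strand: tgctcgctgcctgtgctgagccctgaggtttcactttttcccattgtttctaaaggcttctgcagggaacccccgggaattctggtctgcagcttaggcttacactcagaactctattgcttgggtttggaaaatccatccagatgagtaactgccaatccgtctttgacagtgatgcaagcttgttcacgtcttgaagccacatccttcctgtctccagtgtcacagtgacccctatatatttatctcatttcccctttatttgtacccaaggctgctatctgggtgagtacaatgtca
Nlrp3 at chr11:59542436-59542735, plus strand: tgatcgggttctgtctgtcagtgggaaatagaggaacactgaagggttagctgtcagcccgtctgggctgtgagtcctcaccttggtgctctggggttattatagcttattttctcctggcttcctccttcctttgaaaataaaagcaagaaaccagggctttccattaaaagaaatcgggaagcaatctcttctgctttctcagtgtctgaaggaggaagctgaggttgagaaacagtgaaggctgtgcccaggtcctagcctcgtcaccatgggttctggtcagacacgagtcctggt
Casp1 at chr9:5298267-5298566, plus strand: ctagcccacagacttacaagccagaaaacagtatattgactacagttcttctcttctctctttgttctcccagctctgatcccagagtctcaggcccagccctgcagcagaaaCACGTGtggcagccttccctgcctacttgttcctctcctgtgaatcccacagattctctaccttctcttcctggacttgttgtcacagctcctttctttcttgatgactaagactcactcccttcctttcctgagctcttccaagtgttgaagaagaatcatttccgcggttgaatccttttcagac
Casp4 at chr9:5308599-5308898, plus strand: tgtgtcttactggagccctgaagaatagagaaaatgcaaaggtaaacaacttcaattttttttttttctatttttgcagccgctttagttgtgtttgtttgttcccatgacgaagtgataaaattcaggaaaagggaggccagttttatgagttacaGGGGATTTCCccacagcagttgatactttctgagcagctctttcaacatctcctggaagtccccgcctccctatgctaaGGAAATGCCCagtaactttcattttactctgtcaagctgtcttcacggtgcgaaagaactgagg
The Casp1 window holds CACGTG, beginning at position -137 from the start. The Casp4 window holds 2 matches to GGGNNTTTCC, beginning at -93 and -14, the second on the opposite strand, and the other annotated Casp4 start lies a few bases downstream and shares both. Neither Nlrp3 window, nor the windows of Pycard, Nlrp1b, Nlrc4, Il18 and Il1b, holds any of these 4 words. The looser GGGNNNNNCC, left unmarked, did match both Nlrp3 windows, beginning at -186 and -8. It also matched the Casp1 window, beginning at -158, and the Casp4 windows. The difference between the Nlrp3 and Casp4 windows thus depends on which of the 2 NF-κB forms is used. A match describes the letters in the window and not binding.

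Pycard encodes ASC, the adaptor that links a sensor to caspase-1. Its counts were 1977, 1866 and 1976 in KO-labelled and 2238, 2121 and 2078 in WT-labelled libraries, again with every KO-labelled library lower. The mean was 55.1 ± 2.58 CPM in KO-labelled and 61.0 ± 1.89 CPM in WT-labelled libraries (SD, n = 3 each), with a difference of -0.15 ± 0.046 on the log2 scale (SE; edgeR adjusted p = 0.0286). This is 0.90 of the WT level, with a 95% interval from 0.84 to 0.96. This call was not stable: the edgeR adjusted p was 0.0503, 0.141, 0.149 and 0.0879 without KO replicate 1, KO replicate 2, WT replicate 1 and WT replicate 2. In the GENCODE annotation of GRCm38, 12.8% of the Pycard exon bases overlap an unconfirmed transcript on the other strand, and the sources used here do not say whether counting used strand. That annotation gives Pycard 3800 exon bases, against a length of 2135 behind the deposited FPKM, so the share in the counted gene model may differ.

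Gsdmd, the gene of the pore that caspase-1 and caspase-11 open, had 1323, 1280 and 1255 counts in KO-labelled libraries, against 1411, 1322 and 1267 in WT-labelled ones. The groups overlapped, with means of 36.5 ± 1.01 CPM in KO-labelled and 37.9 ± 1.81 CPM in WT-labelled libraries (SD, n = 3 each). Its log2 fold change was -0.055 ± 0.054 (SE; edgeR adjusted p = 0.554), and the 95% interval ran from 0.89 to 1.04 of the WT level.

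The cytokine genes were close to the limit of detection. Il18 had 12, 3 and 10 counts in KO-labelled libraries and 16, 19 and 12 in WT-labelled ones, with KO replicate 1 level with WT replicate 3. The log2 fold change of -0.90 ± 0.526 (SE) did not pass the test (edgeR adjusted p = 0.278), and its 95% interval ran from -1.99 to 0.19. Il18 reached the count minimum in 2 KO-labelled and 3 WT-labelled libraries and so entered the test through the group where it was higher. Il1b had 7, 1 and 2 counts in KO-labelled libraries and 0, 2 and 1 in WT-labelled ones, and KO replicate 1 alone held 7 of the 10. The ratio of the summed counts, 10 in KO-labelled and 3 in WT-labelled libraries, was 3.33 with a 95% counting interval from 0.857 to 18.8, which spans equality.

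**Figure D3:**
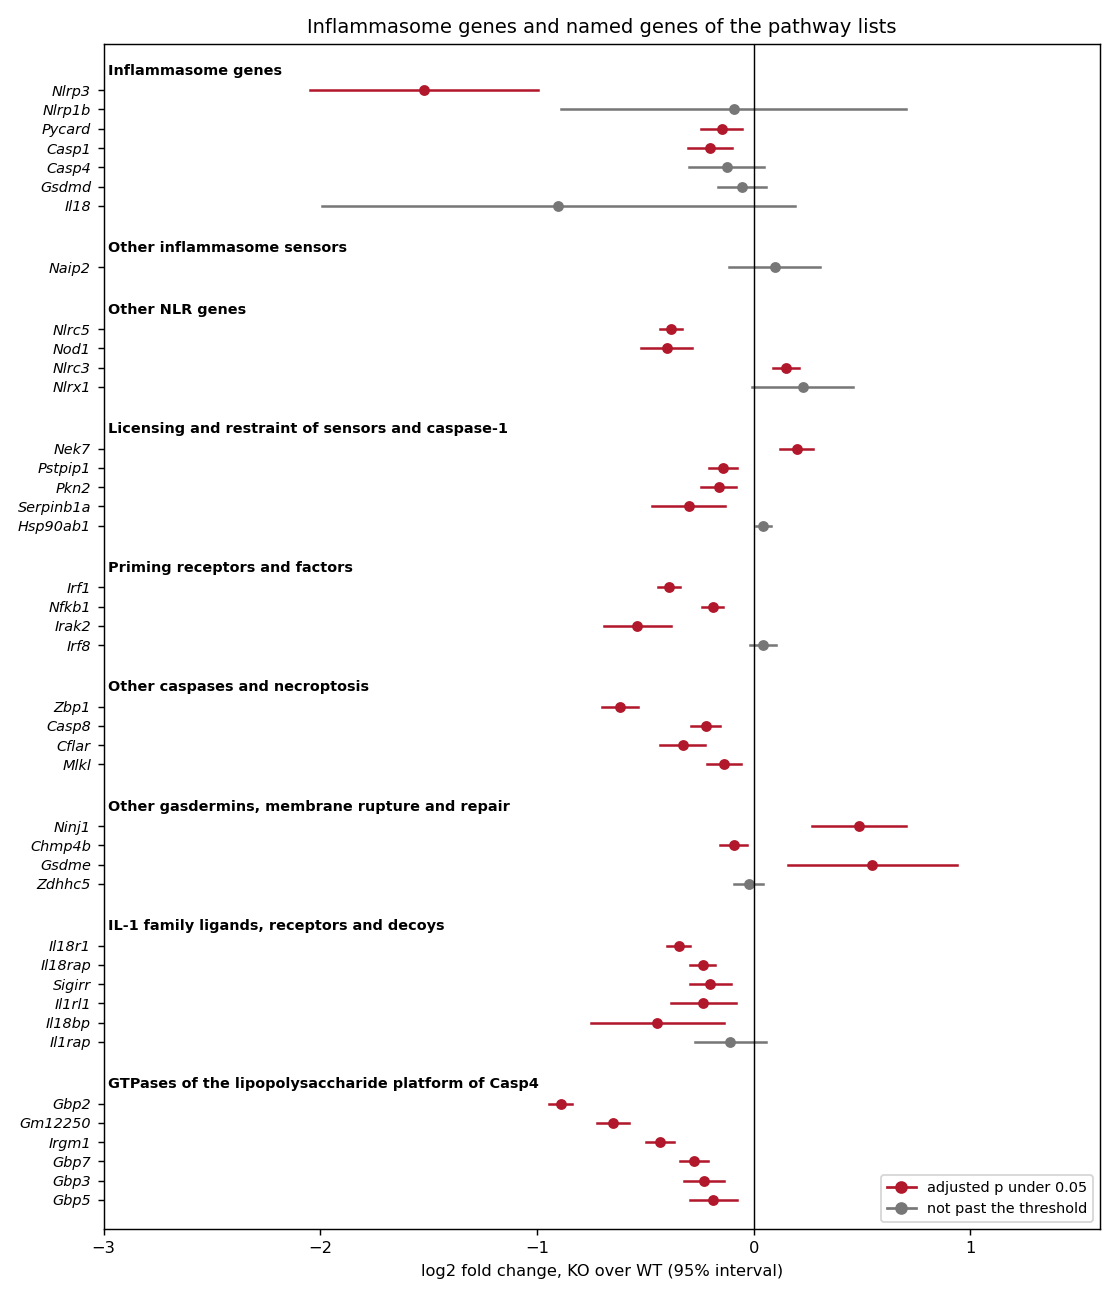
Log2 fold change, KO over WT, with its 95% interval (edgeR quasi-likelihood), for the 7 tested inflammasome genes and for the named genes of the 8 pathway lists. Nlrp3 at -1.52 lies farthest below 0, the GTPases of the lipopolysaccharide platform of Casp4 are all below it, and Ninj1 and Gsdme lie above it.

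The rest of the pathway was followed in 8 lists of 88 genes, drawn up by function. Of these, 81 had a row and 72 were tested. In KO-labelled libraries 24 were lower and 4 higher, 38.9% of those tested beside 17.3% of all genes, with a median log2 fold change of -0.084. Some of these genes, chiefly the GTPases and the IL-18 receptor chains, were already known to be lower in these libraries when the lists were drawn up.

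Among the other inflammasome sensors, 0 of 6 tested genes passed in either direction by edgeR, with 0 at an unadjusted p under 0.05 and 0 by DESeq2. Naip2, a receptor for bacterial secretion-system rods, was the most abundant at 9.15 ± 0.401 CPM in KO-labelled and 8.56 ± 0.164 CPM in WT-labelled libraries (SD, n = 3 each; log2 fold change 0.097, edgeR adjusted p = 0.580). Naip2, Naip5 and Naip6 are close copies of each other, so their counts are uncertain.

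Other genes of the NLR family moved in both directions, with 2 of 6 lower and 1 higher. Nlrc5, the transactivator of class I antigen presentation genes, fell to 286 ± 2.49 CPM in KO-labelled libraries, against 373 ± 4.94 CPM in WT-labelled ones (log2 fold change -0.38 ± 0.025, edgeR adjusted p = 5.89e-11). Nod1, a receptor for bacterial peptidoglycan fragments, fell by 0.40 on the log2 scale (edgeR adjusted p = 1.42e-05), while Nlrc3, a negative regulator of innate and T cell signalling, rose by 0.15 (edgeR adjusted p = 0.000572). Nlrx1, a mitochondrial member, stood at 0.23 and did not pass (edgeR adjusted p = 0.190), though it did without WT replicate 3 (log2 fold change 0.37, adjusted p = 0.0335).

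Genes that license or restrain the sensors and caspase-1 held 3 lower and 1 higher of 13 tested. Nek7, the kinase that NLRP3 needs to assemble, was the one that rose, to 159 ± 9.01 CPM in KO-labelled against 139 ± 2.14 CPM in WT-labelled libraries (log2 fold change 0.20 ± 0.037, edgeR adjusted p = 0.000357). So Nek7 and Nlrp3 moved in opposite directions. Serpinb1a, a protease inhibitor, fell by 0.30 on the log2 scale, Pkn2, a kinase that keeps the sensor pyrin inactive, by 0.16, and Pstpip1, a cytoskeletal partner of pyrin, by 0.14 (edgeR adjusted p = 0.0113, 0.00481 and 0.00161). Hsp90ab1, a chaperone, was the most abundant that did not pass, at 0.044 (edgeR adjusted p = 0.0756), though it did without WT replicate 2 (adjusted p = 0.0452) and with upper-quartile or total scaling (adjusted p = 0.0436 and 0.0304). The NLRP1B restraints Dpp8 and Dpp9, chosen after their values were seen, stood at 0.041 and -0.056 and did not pass.

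Of the receptors and factors that prime inflammasome genes, 3 of 14 tested were lower and 0 higher by edgeR. Over all tested genes edgeR called 10.1% lower and 7.23% higher. At an unadjusted p under 0.05, for which no background was taken, the list counts were 7 and 0, and DESeq2 gave 3 and 0. Irak2, a kinase of Toll-like and IL-1 receptor signalling, fell to 16.2 ± 1.28 CPM in KO-labelled against 23.5 ± 1.41 CPM in WT-labelled libraries (SD, n = 3 each; log2 fold change -0.54 ± 0.075, edgeR adjusted p = 1.28e-05). Irf1, an interferon-induced transcription factor gene, fell by 0.39 on the log2 scale and Nfkb1, the p50 subunit of NF-κB that promotes Nlrp3 transcription in macrophages, by 0.19 (edgeR adjusted p = 5.74e-11 and 2.90e-06). Irf8, which drives Naip genes in myeloid cells, stood at 0.044 (edgeR adjusted p = 0.351).

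Other caspases and necroptosis genes were lower in 4 of 12 tested and higher in 0 by edgeR, which called 10.1% of all tested genes lower and 7.23% higher. The list counts were 4 and 1 at an unadjusted p under 0.05, without a background, and 4 and 0 by DESeq2. Zbp1, a sensor of Z-form nucleic acids that can trigger several forms of cell death, fell to 65.5 ± 2.28 CPM in KO-labelled against 101 ± 2.36 CPM in WT-labelled libraries (SD, n = 3 each; log2 fold change -0.62 ± 0.040, edgeR adjusted p = 5.90e-11). Casp8 and its regulator Cflar fell by 0.22 and 0.33 on the log2 scale (edgeR adjusted p = 2.50e-05 and 3.71e-05). Mlkl, the executioner of necroptosis, fell by 0.14 (edgeR adjusted p = 0.0122), a call lost without WT replicate 1 and WT replicate 2 (adjusted p = 0.0566 and 0.0589).

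On the list of gasdermins, membrane rupture and repair, 2 of 9 tested genes were higher and 1 was lower. Ninj1, which encodes the protein that breaks the plasma membrane open after gasdermin pores form, rose to 11.0, 9.75 and 10.5 CPM in KO-labelled libraries, against 8.01, 7.19 and 7.14 CPM in WT-labelled ones. Every KO-labelled library was higher, with a log2 fold change of 0.48 ± 0.104 (SE; edgeR adjusted p = 0.00175). Gsdme, another gasdermin, had 3.50, 4.55 and 4.66 CPM in KO-labelled and 3.43, 2.76 and 2.50 CPM in WT-labelled libraries, with KO replicate 1 just above WT replicate 1. Its log2 fold change of 0.55 ± 0.187 (SE) passed narrowly (edgeR adjusted p = 0.0471), and the call was lost without KO replicate 2, KO replicate 3, WT replicate 2 and WT replicate 3 (adjusted p = 0.0931, 0.124, 0.131 and 0.172) and by DESeq2 (adjusted p = 0.0563). Chmp4b, a subunit of the ESCRT machinery that patches gasdermin pores, fell by 0.093 (edgeR adjusted p = 0.0341), a call that was lost without KO replicates 1 and 2 and without each WT replicate (adjusted p from 0.0897 to 0.153) but not without KO replicate 3 (adjusted p = 0.000513). The Chmp4b call was also lost with upper-quartile and total scaling (adjusted p = 0.0715 and 0.0594). Zdhhc5, an enzyme that attaches palmitate to proteins, stood at -0.023 (edgeR adjusted p = 0.694).

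Receptors and decoys of the IL-1 family were lower in 5 of 6 tested genes and higher in 0 by edgeR, which called 10.1% of all tested genes lower and 7.23% higher. The IL-18 receptor chains among them were known to be lower in these libraries beforehand. At an unadjusted p under 0.05, without a background, the list counts were also 5 and 0, and by DESeq2 3 and 0. Il18r1 and Il18rap, the chains of the IL-18 receptor, were abundant. Il18r1 stood at 239 ± 3.68 CPM in KO-labelled and 304 ± 4.82 CPM in WT-labelled libraries, and Il18rap at 190 ± 4.02 CPM in KO-labelled and 223 ± 2.45 CPM in WT-labelled ones (SD, n = 3 each), where Il18 itself had under 1 CPM. They fell by 0.35 and 0.24 on the log2 scale (edgeR adjusted p = 8.84e-10 and 1.38e-06). Sigirr, an inhibitory receptor, fell by 0.20 (edgeR adjusted p = 0.00306). Il1rl1, the IL-33 receptor, fell by 0.23 (edgeR adjusted p = 0.0283), a call lost without KO replicate 3, WT replicate 1 and WT replicate 2 (adjusted p = 0.103, 0.149 and 0.0742). Il18bp, the soluble decoy that neutralises IL-18, fell by 0.44 (edgeR adjusted p = 0.0413), a call lost without KO replicates 1, 2 and 3 and WT replicates 1 and 2 (adjusted p = 0.0823, 0.0698, 0.0650, 0.0639 and 0.262). By DESeq2 neither Il1rl1 nor Il18bp passed (adjusted p = 0.0565 and 0.0624). Il1rap, the shared accessory chain, stood at -0.11 (edgeR adjusted p = 0.402). Il1r1, the receptor for IL-1β, was under the count minimum, with 14 counts over the KO-labelled and 22 over the WT-labelled libraries.

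The interferon-induced GTPases that expose lipopolysaccharide to caspase-11 or regulate that step were lower in 6 of 6, by edgeR and by DESeq2. Over all tested genes edgeR called 10.1% lower. As stated above, GTPases were known to be lower in these libraries when the list was drawn up, so nothing is read from this count. Gbp2 and Gm12250, which encodes Irgb10, fell by 0.89 and 0.65 on the log2 scale, Irgm1 by 0.43, Gbp7 by 0.28 and Gbp3 by 0.23 (edgeR adjusted p from 2.63e-17 for Gbp2 to 0.000574 for Gbp3). Gbp5 fell by 0.19 (edgeR adjusted p = 0.0152), a call lost without KO replicate 2, WT replicate 2 and WT replicate 3 (adjusted p = 0.0508, 0.0883 and 0.0606). Guanylate-binding protein genes are close relatives that can share reads. Casp4 itself, as given above, did not pass.

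The tested genes most like Nlrp3 in their profile over the 6 libraries were Pygl, Hic1 and Tgfb3, at 0.15, 0.15 and 0.17. The measure was the smallest mean absolute difference of centred log2(CPM + 0.5) among 10409 genes of at least 2 CPM. The offset of 0.5 narrows differences at CPM as low as those of Nlrp3. Pygl, the liver form of glycogen phosphorylase, averaged 2.90 ± 0.114 CPM in KO-labelled and 6.61 ± 0.621 CPM in WT-labelled libraries, and the transcriptional repressor gene Hic1 5.00 ± 0.644 CPM in KO-labelled and 13.9 ± 0.441 CPM in WT-labelled ones (SD, n = 3 each). Tgfb3, a transforming growth factor gene, averaged 3.53 ± 0.370 CPM in KO-labelled and 6.90 ± 1.17 CPM in WT-labelled libraries. Casp1 was matched most closely by Trim25, a ubiquitin ligase gene of antiviral RNA sensing, at 0.013, which averaged 89.2 ± 1.46 CPM in KO-labelled and 102 ± 3.21 CPM in WT-labelled libraries (SD, n = 3 each). The other two were Pde1b and Zfp429, at 0.016 and 0.018. Likeness over 6 libraries in 2 groups describes these libraries only.

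**Figure D4:**
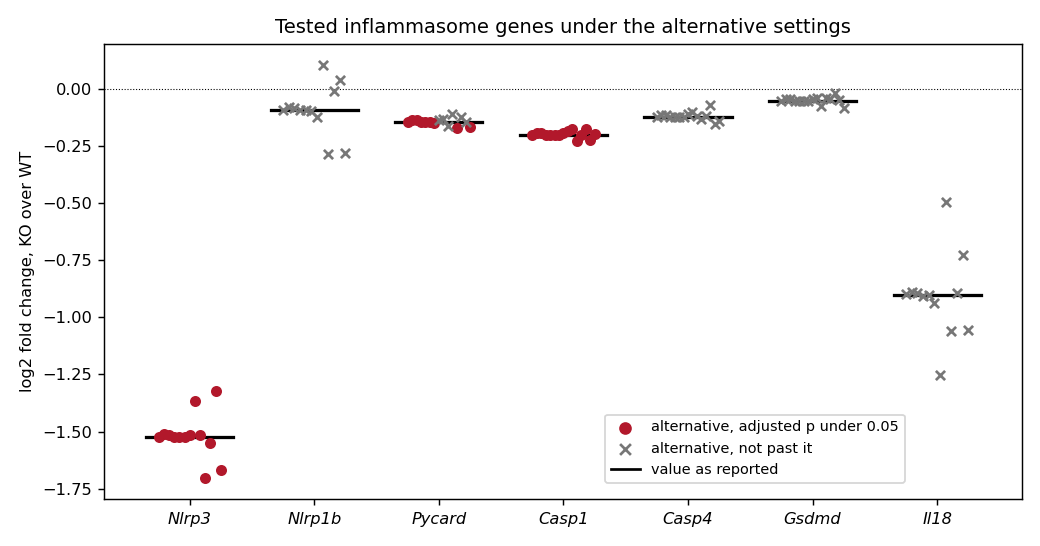
Log2 fold change, KO over WT, of the 7 tested inflammasome genes as reported (black bars) and under each alternative setting that gave a value (points: circles past an adjusted p of 0.05, crosses not past it). Nlrp3 ranges from -1.70 to -1.32 and Casp1 from -0.23 to -0.18, with every alternative past the threshold, whereas Pycard falls on either side of it and Nlrp1b on either side of 0.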

How the data were processed

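Per the labels' protocols, libraries were prepared from TRIzol-extracted RNA using a VAHTS Universal V6 kit. The submitters' processing notes name fastp, HISAT2, HTSeq and GRCm39; their versions and roles, the annotation and strand use are not stated in those sources. The deposited gene counts are whole numbers without normalization. The deposited FPKM values, per the file headers 1 column per library, equal these counts over the column total and 1 length per gene, and served for levels between genes.

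The main test was edgeR 4.0.16 under R 4.3.3 (TMM scaling, filterByExpr, glmQLFit and glmQLFTest on the label), with Benjamini-Hochberg adjustment over 12810 genes and a threshold of 0.05. The filter asks for about 10 counts in 3 libraries. CPM use TMM-scaled library sizes. SE was derived from the log2 fold change and its F statistic. Intervals are 95% intervals of the fit; intervals of summed counts are exact and cover counting error only. Alternatives were RLE, upper-quartile and total scaling, DESeq2 1.42.0, limma-trend 3.58.1 on log2(FPKM + 0.1) and log2(FPKM + 1) for genes of at least 1 FPKM, other filters, the replicate number as a block, and each library left out. Scripts were tested on simulated data. No library was taken as a repeat of another: the chi-square of counts between libraries of a group was 3.26 to 7.19 times its degrees of freedom.

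The genes and lists were chosen with earlier results of these data known. From each list the rule named up to 6 genes past the threshold by smallest p and the most abundant that did not pass. A gene named by that rule is not reported here.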

Additional observations from a re-analysis of the deposited data

How the results depend on the processing

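Under the alternatives tried, Casp1 was called lower in all 15 and Nlrp3 in all 13 that gave it a value; the limma-trend fits on FPKM left Nlrp3, Nlrp1b and Il18 out for a mean under 1 FPKM. Pycard lost its call in 6 of 15, the 2 FPKM fits (adjusted p = 0.0606 and 0.0600) and 4 with a library left out; the cause was not tested. With a library left out, Nlrp1b ranged from -0.29 to 0.11 and changed sign without KO replicate 2 (0.11) and without WT replicate 2 (0.040), with an adjusted p above 0.05 under every setting. Casp4, Gsdmd and Il18 kept their direction and did not pass under any setting. The pathway lists held 3 to 5 higher and 19 to 26 lower genes over all alternatives. Libraries with the same replicate number did not deviate together (correlations 0.048, -0.044 and -0.072), so the numbers were not taken as pairs; with the replicate block 792 genes were higher and 1177 lower, against 926 and 1293 without it, and Nlrp3 stood at -1.52, Casp1 at -0.20 and Pycard at -0.15, all still past the threshold, while of the other named genes Gsdme and Il18bp lost their calls under it (adjusted p = 0.0835 and 0.0668). The lowest counts, those of Nlrc4, Il1b and Il18, allow only wide intervals at this depth.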
